A study of Homo sapiens with 6 samples.

Results

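In HT-29 cells with a control hairpin or a hairpin against OGT, 205 of the 5681 genes in the deposited table were expressed antisense transcripts. They were selected on the annotated class antisense, or a long non-coding class with a name ending in -AS and a digit, and on a mean of at least 20 normalized counts over 6 libraries. The table holds 438 antisense genes in all, of which 233 fell under 20. A normalized count is a read count divided by 1 size factor per library, without division by gene length. Just inside the threshold were AC131971.1, WASHC5-AS1 and AL158163.1, each with a mean of 20.1, and just outside were AL450992.2 (19.9), AC064807.1 (19.4) and AC141930.1 (19.3). The table lists only genes past a 2-fold change and an adjusted p under 0.05 in the authors' own comparison. Every antisense transcript described here had therefore already been chosen by its change, and its fold change is given as a description with its standard error.

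Antisense transcripts are RNAs read from the strand opposite to a gene. Many are long non-coding RNAs that start at or near the promoter of a coding gene, end inside it, or lie wholly within one of its introns. Some are known to act on the gene they overlap, either through base pairing or through the act of transcription itself. A smaller number carry small nucleolar RNAs in their introns, and KCNQ1OT1 is the textbook case of an antisense transcript that silences neighbouring genes of an imprinted domain on the chromosome it is made from.

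HT-29, an established line of human colorectal cancer cells, was infected with a control hairpin (Scramble) or a hairpin that depletes OGT (shOGT), and RNA was sequenced in 3 libraries of each. OGT is the enzyme that adds O-linked N-acetylglucosamine to nuclear and cytosolic proteins. The labels give every library the genotype WT and state no age, time after infection or batch, and the sources do not name which of 2 listed OGT hairpins was used. The comparison asked which transcripts differed when OGT was depleted. The labels do not say that the 3 libraries of a group came from separate cultures, so the errors and p-values measure only the spread between these libraries.

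OGT was 9628, 11638 and 11619.5 in Scramble against 484, 621 and 537 in shOGT, which is 4.99% of the Scramble mean. Size factors were 1.09 to 1.13 in Scramble and 0.879 to 0.950 in shOGT, and reads assigned to the listed genes totalled 4145921 to 4504303 and 3302558 to 3471647. Of 11 epithelial markers, KRT19, KRT20, LGALS4 and VIL1 were in the table, with means from 1379.7 to 8564. The table held none of 5 fibroblast markers, 1 of 4 blood markers (CD14, mean 19.4) and 1 of 3 endothelial markers (PECAM1, mean 107.8), and a marker outside it was not analysed here. In bulk RNA, fewer cells that make a transcript and less of it per cell cannot be told apart.

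The stretches below show how antisense and sense exons meet in pairs on which the results turn. Each is printed on the strand of the antisense transcript, 5′ to 3′, from the GENCODE version 29 transcripts on GRCh38, and capitals mark the bases that also lie, as the reverse complement, in an exon of the sense gene. The KCNQ1OT1 stretch crosses a coding exon of KCNQ1, the HOTTIP stretch lies in coding sequence of HOXA13, and the AC106820.2 and SNHG12 stretches show how few bases these tail-to-tail genes share.
KCNQ1OT1, chr11:2661953-2662089, minus strand: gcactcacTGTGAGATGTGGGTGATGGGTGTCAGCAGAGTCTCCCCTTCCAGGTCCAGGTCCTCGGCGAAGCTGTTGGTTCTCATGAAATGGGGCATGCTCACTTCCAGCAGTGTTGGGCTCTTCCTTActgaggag
HOTTIP, chr7:27199245-27199330, plus strand: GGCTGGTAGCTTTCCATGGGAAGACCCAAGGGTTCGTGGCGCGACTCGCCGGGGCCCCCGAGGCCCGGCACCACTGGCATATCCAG
AC106820.2, chr16:2464950-2464971, minus strand: aacacaaaTGCTTTCTAAAGTG
SNHG12, chr1:28578538-28578553, minus strand: aagactaaTAAAAGTA

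Most expressed antisense transcripts were higher after OGT depletion. By sign, 155 of 205 were higher and 50 were lower, or 75.6% against 24.4%, and the median log2 fold change was 1.39, with a range from -3.10 to 5.91. With limma's trend test (over 2-fold, Benjamini-Hochberg adjusted p under 0.05), 203 were called, 154 higher and 49 lower. Over all 5671 genes tested, 99.4% were called, 52.2% higher and 47.2% lower. Values of the 2 groups did not overlap for 204 of the 205, against 99.3% of all genes of the table. With 3 libraries against 3, an exact two-sided permutation test cannot go below p = 0.1, which is the value of every transcript without overlap. AL034550.1 (-0.96) and AC112484.1 (0.99) were the antisense transcripts not called, and AL080317.1 was the one whose groups overlapped.

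The share of higher transcripts was lower at high abundance. Among transcripts with a mean of 20 to under 50, 91 of 113 were higher, from 50 to under 100 it was 42 of 53, and from 100 upward it was 22 of 39, where the median log2 fold change was 1.10. Intergenic long non-coding RNAs (lincRNA) with a mean of at least 20 were higher in 72.0% of 182 cases, with a median of 1.37. Of the 3548 protein-coding genes of that level, 37.7% were higher, and the median was -1.16. With no limit on the mean, 81.0% of lincRNAs and 42.6% of protein-coding genes were higher. A lower share at higher abundance was thus not particular to antisense transcripts. These shares were not tested against each other. Rescaling the libraries by the median of ratios over the table shifted the median of all genes by 0.71. It moved the split of called antisense transcripts from 75.9% higher and 24.1% lower to 91.2% and 8.82%. The size of the lower group thus depends on the scaling. The table lists only genes past a 2-fold change, so this rescaling has no unchanged genes to rest on and cannot show which scaling is right.

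**Figure D1:**
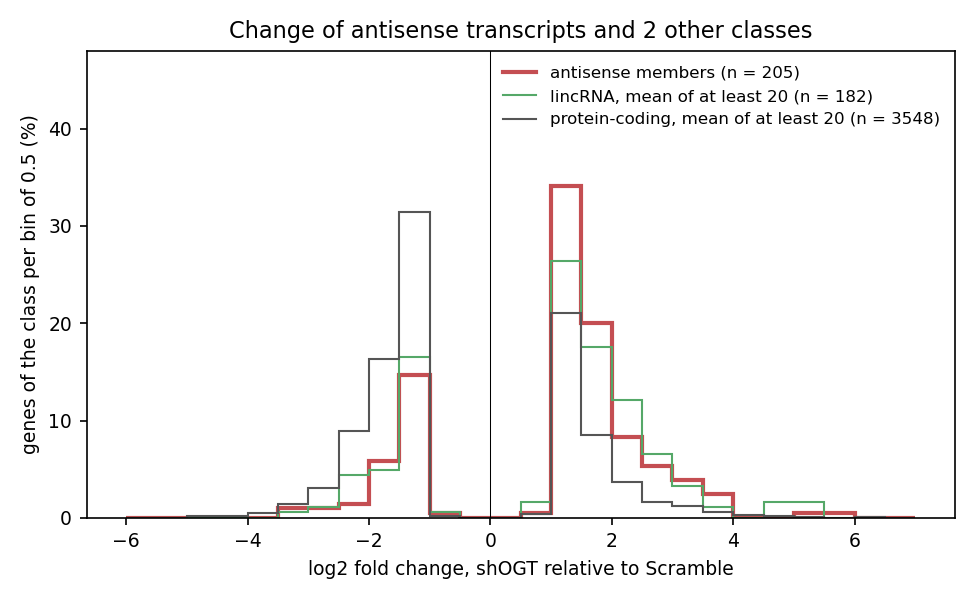
The share of each class (%) in bins of 0.5 of the log2 fold change, shOGT relative to Scramble, for 205 antisense transcripts, 182 lincRNAs and 3548 protein-coding genes with a mean of at least 20 normalized counts. The antisense and lincRNA outlines are taller on the right of 0 and the coding outline on the left, and the gap around 0 is the restriction of the table to changes past 2-fold.

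Spliced and unspliced transcripts were both mostly higher. In GENCODE 29, 54 of the 205 have 1 exon in every transcript (26.3%), against 33.0% of the lincRNAs and 1.63% of the coding genes. Of those 54, 46 were higher (median 1.496), and of the 151 with a spliced transcript, 109 were higher (median 1.32). By position, 176 overlap a coding gene on the other strand, 16 start within 1000 bases of a coding gene and run away from it, and 13 do neither. Higher transcripts made up 129 of the 176, 15 of the 16 and 11 of the 13.

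Exons that overlap across strands bear on how the counts can be read. The labels describe a kit that marks the strand, but the setting used for counting is not given in the sources used here, and without it reads from overlapping exons of opposite strands cannot be told apart. In 69 of the 205 no exon base lies under an exon of the opposite strand, and 59 of these (85.5%) were higher, with a median log2 fold change of 1.61. In 131 some but under 50% of the exon bases do, and 92 (70.2%) were higher, with a median of 1.32. Only 5 have 50% or more, and 4 of them were higher. These shares were not tested against each other.

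ZFAS1, a host of small nucleolar RNAs that starts next to ZNFX1, was the most abundant antisense transcript (chr20:49278178-49295738, plus strand). It was 2100.2, 2387 and 2238 in Scramble against 848, 839 and 948 in shOGT, a log2 fold change of -1.35 ± 0.09 (SE). All shOGT values lay under all Scramble values, and 26.1% of its exon bases lie under exons of the other strand and 20.9% under exons of other genes on its own. SNHG7, another small nucleolar RNA host, was 1029.7, 819 and 765 in Scramble against 324, 208 and 248 in shOGT, a change of -1.75 ± 0.16. SNHG12, also a host by its name, was 351, 306 and 301 in Scramble against 139, 118 and 118 in shOGT, a change of -1.35 ± 0.14. These 3 hosts were grouped after their values were seen, and all were lower in all shOGT libraries. After the rescaling above the changes were -0.63 for ZFAS1, -1.04 for SNHG7 and -0.63 for SNHG12, so that ZFAS1 and SNHG12 were no longer past 2-fold.

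KCNQ1OT1 moved the other way and was the second most abundant (chr11:2608328-2699994, minus strand). It was 337, 424 and 439.9 in Scramble against 2414, 2581 and 2128 in shOGT, a log2 fold change of 2.57 ± 0.12 and 5.93 times the Scramble mean. Only 1.23% of its exon bases lie under exons of any gene of the other strand. DLGAP1-AS2, opposite DLGAP1, was 563, 567 and 533 in Scramble against 1333, 1371 and 1268 in shOGT, a change of 1.25 ± 0.09. LUCAT1, a long non-coding RNA named for lung cancer that overlaps ADGRV1, was 299.8, 393 and 428 in Scramble against 778, 872 and 977 in shOGT, a change of 1.24 ± 0.14. Neither shares any exon base with the other strand, and in both the groups were well apart.

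AL365181.3, opposite the proteoglycan gene BCAN, was 1668, 1522 and 1489 in Scramble against 743, 845 and 621 in shOGT. GABPB1-AS1, opposite the gene of a GA-binding protein subunit, was 1365, 1479 and 1431 in Scramble against 663, 706 and 649 in shOGT. Their log2 fold changes were -1.09 ± 0.11 and -1.08 ± 0.09, close to the 2-fold limit, and after the rescaling they were -0.37 and -0.37. Of 59 long non-coding RNAs listed from general knowledge, most of them named as antisense, 10 were in the table and 4 were expressed antisense transcripts, ZFAS1 and KCNQ1OT1 among them. PPP1R26-AS1 was 62.97, 44.2 and 44.2 in Scramble against 115, 139 and 117 in shOGT, a change of 1.29 ± 0.22. KRT7-AS, opposite the keratin 7 gene, was 8.87, 9.91 and 11.96 in Scramble against 24.2, 56.8 and 33.01 in shOGT, a change of 1.72 ± 0.38.

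The largest rises started from few reads in Scramble. AC006441.1, opposite the actin-binding protein gene LASP1 (chr17:38903704-38904600, minus strand), was 0.887, 5.41 and 5.52 in Scramble against 271, 260.3 and 241 in shOGT. AC020571.1, inside the ubiquitin ligase gene HECW2, was 0.887, 2.70 and 0.920 in Scramble against 86.3, 97.5 and 106 in shOGT. HECW2 was higher too, with 0.887, 1.80 and 2.76 in Scramble against 56.8, 56.8 and 30.7 in shOGT. The Scramble libraries of AC020571.1 were all at or under 3 reads, so it was at least 35.6-fold higher in shOGT, taking 3 reads per library as the floor, and this covers counting error only. Neither transcript shares an exon base with the other strand.

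AL357079.2, which spans DPH2 and reaches ATP6V0B, was 3.55, 0.901 and 2.76 in Scramble against 65.3, 48.2 and 39.8 in shOGT. AC106820.2 was 5.32, 2.70 and 2.76 in Scramble against 67.4, 68.5 and 69.4 in shOGT. AL157935.1, opposite DPM2 and FAM102A, was 9.76, 10.8 and 1.84 in Scramble against 128, 131 and 73.98 in shOGT, with 34.96% of its exon bases under exons of the other strand. In each of these the lowest shOGT library was several times the highest Scramble library, and the fitted log2 fold changes were 3.9998 ± 0.43, 3.96 ± 0.37 and 3.93 ± 0.49. Without Scramble replicate 3 that of AL157935.1 was 3.27, and without Scramble replicate 1 that of AC006441.1 was 5.32 in place of 5.91.

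Among the 5 deepest falls, AL162231.2 was 49.7, 40.6 and 21.2 in Scramble against 8.42, 1.07 and 3.41 in shOGT, a change of -3.03 ± 0.53, with a wide spread in both groups. AC099850.3, inside PRR11, was 126, 104 and 133 in Scramble against 13.7, 12.9 and 28.5 in shOGT, a change of -2.74 ± 0.32, with 30.2% of its exon bases under exons of the other strand. Every shOGT library lay under every Scramble library. RNF157-AS1, opposite RNF157 and the cilium regulator gene FOXJ1, was 39.9, 33.3 and 32.2 in Scramble against 6.32, 12.9 and 1.14 in shOGT. ZNF32-AS2, inside ZNF32, was 40.8, 45.96 and 31.3 in Scramble against 4.21, 6.43 and 13.7 in shOGT, with 35.1% of its exon bases under exons of the other strand. Their changes were -2.58 ± 0.55 and -2.27 ± 0.42. The change of RNF157-AS1 was -1.84 without shOGT replicate 6 and -3.19 without shOGT replicate 5. Among the 16 transcripts that run away from a coding gene, only LINC01137 was lower (-1.09). It was -0.74 without shOGT replicate 5 and -0.39 after the rescaling, both under 2-fold. Of the 16, AC114811.2, next to TSPAN5, rose the most (3.80 ± 0.41).

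**Figure D2:**
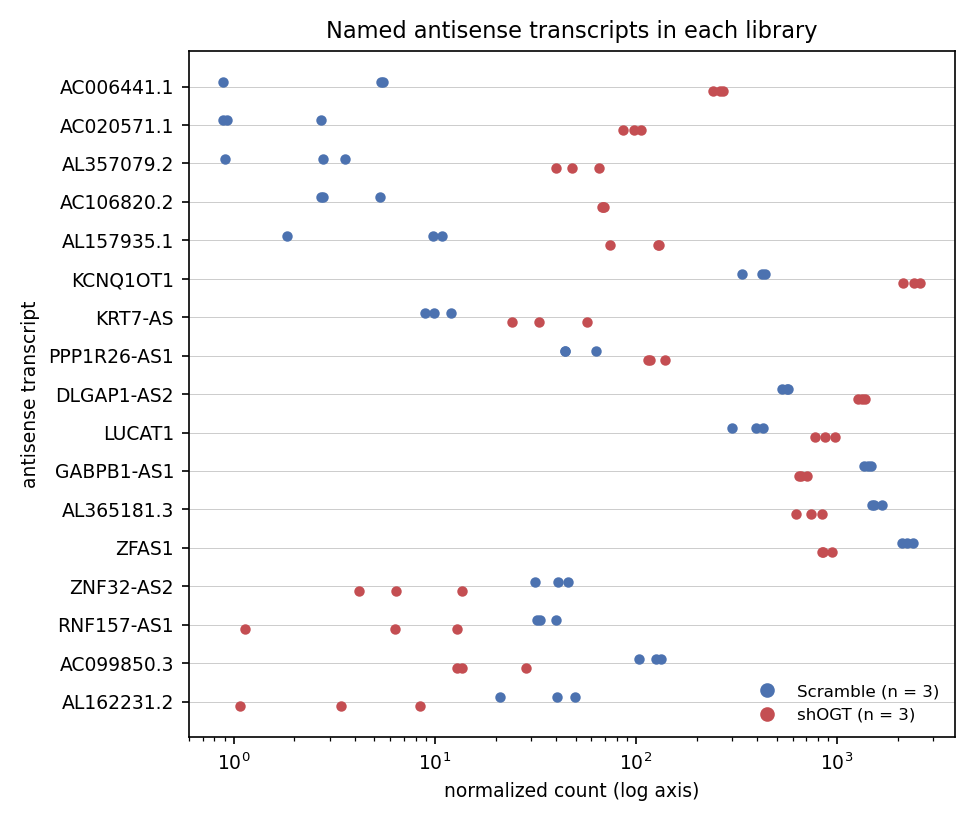
Normalized counts (log axis) of the 17 named antisense transcripts in the 3 Scramble (blue) and 3 shOGT (red) libraries, 1 point per library, ordered by fold change. The colours do not overlap in any row. AC006441.1 to AL157935.1 start at 10.8 or less in Scramble, and ZFAS1, AL365181.3 and GABPB1-AS1 stay above 600 in both groups.

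Antisense transcripts were next set beside the coding gene opposite them. In 65 pairs, made of 58 antisense transcripts and 65 coding genes, both genes were in the table. They changed in the same direction in 44 (67.7%), 26 both higher and 18 both lower, and in opposite directions in 21. Of these 21, 20 had the antisense transcript higher and the sense gene lower, and only SNHG12 with TRNAU1AP had the reverse. Among 167 pairs of overlapping coding genes of the table, 80.2% changed in the same direction, 37 both higher and 97 both lower. Among 74 pairs of a coding gene with an antisense transcript under a mean of 20, the share was 83.8%. These shares were not tested against each other. Where the antisense transcript was lower, the sense gene was lower in 18 of 19 pairs. Where it was higher, the sense gene was higher in 26 of 46. Over all 65 pairs the antisense transcript was higher in 46 and the sense gene in 27. The other 118 antisense transcripts that overlap a coding gene have partners outside the table, which were not analysed here.

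Counts by the arrangement of the genes were as follows. Antisense transcripts wholly inside the sense gene moved with it in 17 of 21 pairs, and head-to-head pairs, which overlap at their starts, in 14 of 20. Tail-to-tail pairs, which overlap at their ends, moved together in 9 of 17, and a sense gene inside the antisense gene in 4 of 7. For coding pairs the counts were 55 of 66 head to head, 49 of 65 tail to tail and 30 of 36 with 1 gene inside the other. Exon bases were shared in 49 pairs, 28 of them with bases of the coding sequence, and 32 of the 49 moved together. Without a shared exon base it was 12 of 16. None of these differences was tested.

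**Figure D3:**
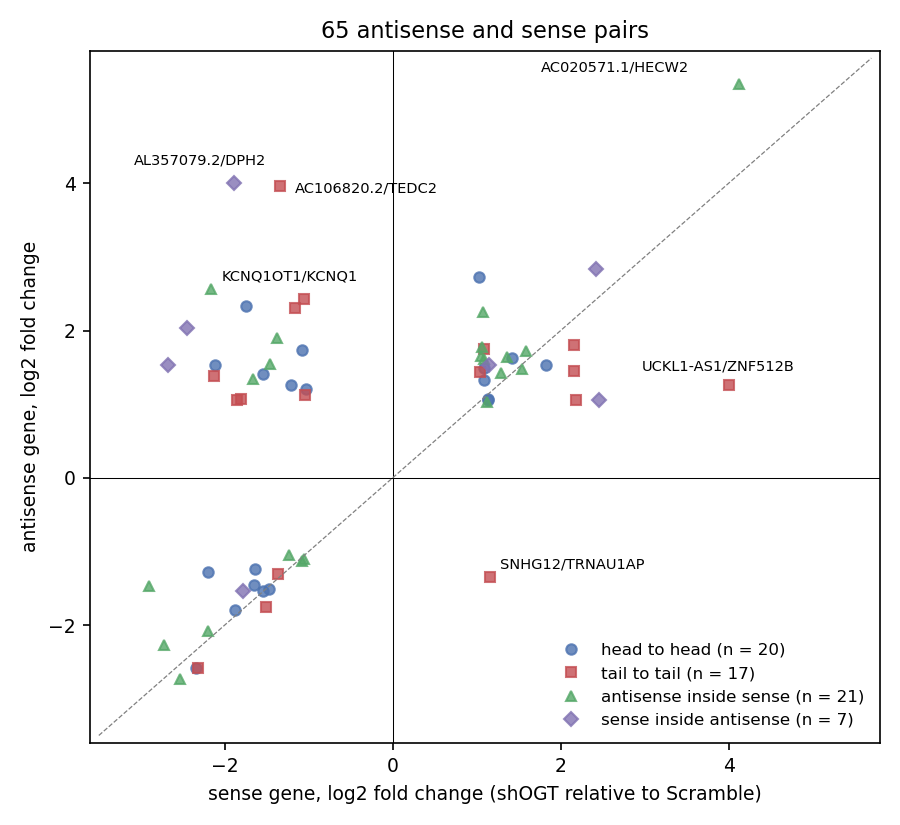
Log2 fold change (shOGT relative to Scramble) of the antisense gene (y axis) against the sense gene (x axis) for 65 pairs, with a symbol for each arrangement and a dashed line where both changes are equal. The upper left holds the 20 pairs with the antisense gene higher and the sense gene lower, and the lower right holds only SNHG12 with TRNAU1AP.

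The ratio of antisense to sense was fitted within each pair. limma's trend test on log2((antisense + 1)/(sense + 1)), with Benjamini-Hochberg adjustment over 411 overlapping opposite-strand pairs of any class, called 26 of the 65, 23 with a higher and 3 with a lower ratio in shOGT. Over all 411 pairs, 34.8% were called. The ratios did not overlap between groups in 33 of the 65, against 50.6% of all pairs. The 26 comprise all 21 opposite pairs and 5 pairs that moved the same way. In an opposite pair both genes had been chosen for changes past 2-fold, which fixes a ratio change of about 4-fold or more, so its ratio is given below as a description with no test. In 10 of the 20 opposite pairs with a higher antisense transcript, that transcript had a Scramble mean under 20 and reached the mean of 20 through its shOGT libraries. Per kilobase of exon, the median antisense level was 24.6% of the sense level in Scramble and 56.6% in shOGT. In opposite pairs these medians were 2.20% and 36.9%, and in same-direction pairs 69.9% and 64.9%. The pairs were split by the direction of these same changes, so the medians only describe that split.

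**Figure D4:**
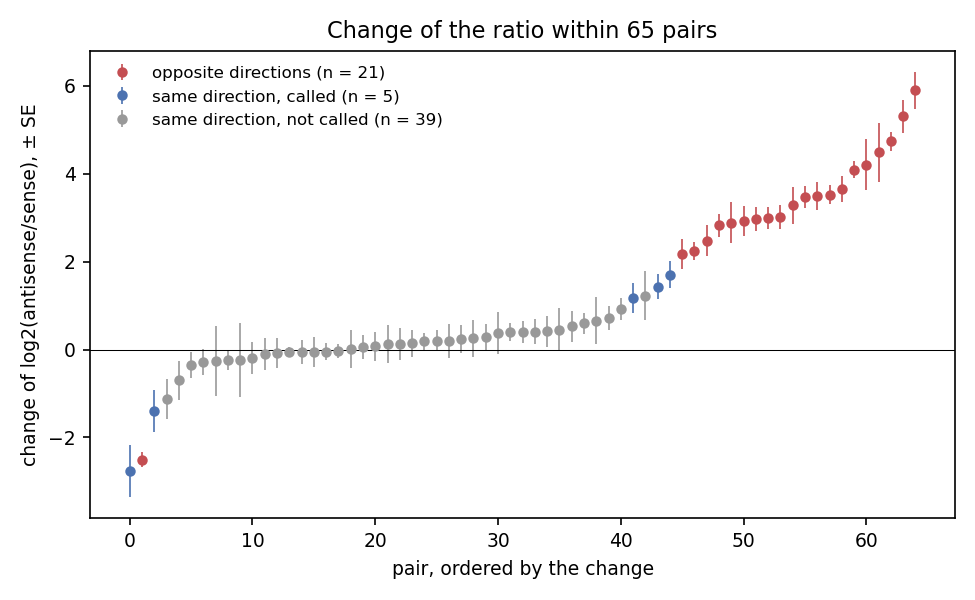
Change of log2(antisense/sense) in shOGT relative to Scramble, with its standard error, for the 65 pairs ordered by size. The 21 opposite pairs (red) take the right end and 1 place on the left, 5 same-direction pairs are called (blue), and 39 are not (grey).

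KCNQ1OT1 rose and KCNQ1, a voltage-gated potassium channel gene, fell. KCNQ1 was 852, 642 and 663 in Scramble against 158, 178 and 142 in shOGT, a log2 fold change of -2.16 ± 0.14, and all shOGT values lay under all Scramble values. The ratio rose by 4.73 ± 0.21. KCNQ1OT1 lies inside KCNQ1, and the 121 shared bases printed above make up 0.132% of its exons and 2.72% of those of KCNQ1. Per kilobase it went from 2.70% to 72.3% of KCNQ1.

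Larger ratio changes came from AL357079.2 and AC106820.2, whose Scramble values were near 0. DPH2, which acts in diphthamide synthesis, was 594, 601 and 526 in Scramble against 171, 152 and 139 in shOGT, and its ratio to AL357079.2 changed by 5.89 ± 0.42 in favour of the antisense transcript. TEDC2, named for a complex of epsilon and delta tubulin, was 168, 146 and 143 in Scramble against 52.6, 68.5 and 58.05 in shOGT, and 14 bases are shared at the tails. The pair changed by 5.30 ± 0.37, and both genes stood at about the same level per kilobase in shOGT, 100.2% against 2.07% in Scramble.

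Head to head, AL162458.1 was 77.2, 80.2 and 83.7 in Scramble against 468, 468 and 315 in shOGT. Its partner PCIF1, the gene of the enzyme that methylates the adenosine next to the mRNA cap, was 1518, 1426 and 1359 in Scramble against 455, 410.2 and 414 in shOGT. All shOGT libraries had more of the first and less of the second, and the ratio rose by 4.09 ± 0.20. C10orf25 was 27.5, 27.9 and 23.9 in Scramble against 77.9, 87.8 and 70.6 in shOGT. ZNF22, a zinc finger gene, was 314, 374 and 344 in Scramble against 70.5, 78.2 and 86.5 in shOGT, and the ratio rose by 3.66 ± 0.29. They share 359 exon bases, 11.7% of C10orf25.

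Tail to tail, PRR7-AS1 was 54.1, 45.96 and 54.3 in Scramble against 169, 145 and 102 in shOGT. GRK6, a kinase of G protein-coupled receptors, was 1559, 1545 and 1301 in Scramble against 352, 377 and 278 in shOGT, and the ratio rose by 3.52 ± 0.22. PTOV1-AS1 was 8.87, 8.11 and 4.60 in Scramble against 45.3, 54.6 and 29.6 in shOGT. MED25, a Mediator subunit gene, was 1340.1, 1095 and 1067 in Scramble against 608, 532 and 533 in shOGT. Their ratio rose by 3.49 ± 0.32, with 1438 exon bases shared, 34.2% of PTOV1-AS1. AL034417.4 was 12.4, 20.7 and 29.4 in Scramble against 104, 131 and 77.4 in shOGT. ERRFI1, which encodes an inhibitor of the EGF receptor, was 17398, 22675 and 21690.2 in Scramble against 8412, 9448 and 9676 in shOGT. That ratio rose by 3.47 ± 0.25, and the antisense level per kilobase was 0.103% of ERRFI1 in Scramble and 1.15% in shOGT.

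Inside their sense genes, AL138689.2 was 4.43, 18.02 and 11.96 in Scramble against 28.4, 40.7 and 55.8 in shOGT. EFNB2, the ephrin-B2 ligand gene around it, was 1813, 1971 and 1799 in Scramble against 664, 736 and 744 in shOGT. The antisense transcript was higher and the sense gene lower in every shOGT library. GSN-AS1 was 11.5, 11.7 and 17.5 in Scramble against 49.5, 40.7 and 34.1 in shOGT. GSN, which encodes the actin-severing protein gelsolin, was 3000.5, 2379.9 and 2371 in Scramble against 978, 908 and 911 in shOGT. The ratios rose by 3.28 ± 0.43 and 3.01 ± 0.27, and in both pairs the antisense transcript stayed at 10.3% of the sense gene or less per kilobase. AC011483.1, which spans the kallikrein genes KLK7 and KLK8, was 11.5, 12.6 and 9.20 in Scramble against 39.997, 41.8 and 22.8 in shOGT. KLK8 was 39.02, 25.2 and 50.6 in Scramble against 6.32, 3.21 and 5.69 in shOGT, a ratio change of 4.21 ± 0.57. KLK7, in contrast, was higher by 1.15 ± 0.33, a ratio change of 0.38 ± 0.47. The same transcript thus counts in an opposite and in a same-direction pair. AC011483.1 reached the limit on the mean through its shOGT libraries, so its ratio to KLK7 is given with no test. CASC8 was 24.8, 23.4 and 22.1 in Scramble against 107, 103 and 87.6 in shOGT. POU5F1B, a retrogene of POU5F1 inside it, was 17.7, 12.6 and 13.8 in Scramble against 4.21, 0 and 3.41 in shOGT, and the ratio rose by 4.49 ± 0.67 from few reads of POU5F1B. It was 3.70 without shOGT replicate 5 and 5.75 with a pseudocount of 0.1.

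SNHG12 and TRNAU1AP, which takes part in selenocysteine incorporation, were the reverse case. TRNAU1AP was 424, 405 and 346 in Scramble against 953, 793 and 871 in shOGT, with every shOGT library above every Scramble library, while SNHG12 fell. The ratio fell by 2.50 ± 0.16. Only the 8 bases printed above are shared. CEBPB-AS1, which starts inside the gene of the transcription factor CEBPB, was 15.96, 27.03 and 17.5 in Scramble against 48.4, 46.1 and 45.5 in shOGT. CEBPB was 9182, 9059.9 and 8542 in Scramble against 5068, 3984 and 4139.7 in shOGT, a ratio change of 2.24 ± 0.21. The remaining opposite pairs had ratio changes from 2.18 (AP002449.1 with SEH1L) to 3.00 (AL355388.2 with ARHGEF2). SNHG12 and CEBPB-AS1 fall outside the rule for named pairs and were chosen after their values were seen.

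**Figure D5:**
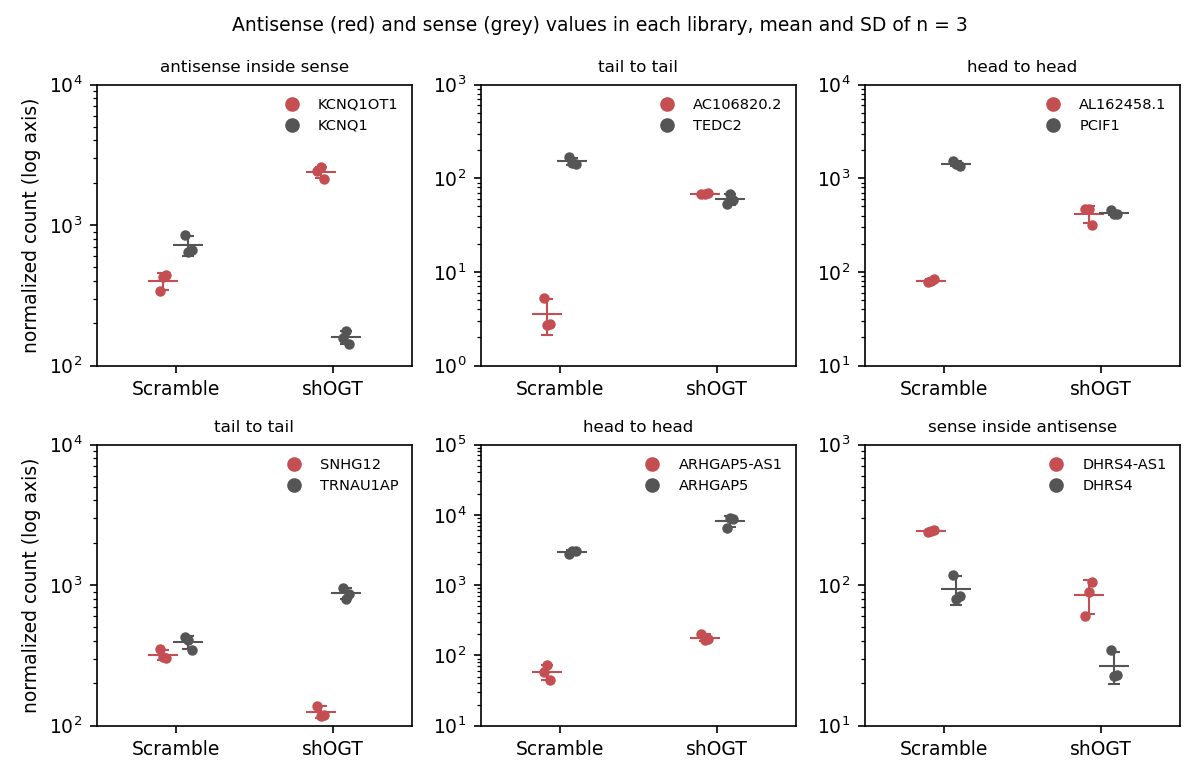
Normalized counts (log axis, not divided by gene length) of the antisense gene (red) and the sense gene (grey) of 6 pairs in each of 3 Scramble and 3 shOGT libraries, with mean and SD. In the first 4 panels the genes move in opposite directions, and in ARHGAP5-AS1 with ARHGAP5 and DHRS4-AS1 with DHRS4 they move together.

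In 31 of the 44 pairs that moved together, the ratio changed by under 0.5 on the log2 scale. A ratio change that was not called does not show that both genes changed alike, and its standard error is given. ARHGAP5-AS1 was 57.6, 72.1 and 45.1 in Scramble against 202, 165 and 169.6 in shOGT. ARHGAP5, which starts beside it, was 2803, 3045 and 3096 in Scramble against 6427, 9144 and 8627 in shOGT. The ratio changed by 0.20 ± 0.24, with 304 exon bases shared, 16.5% of ARHGAP5-AS1. AL121772.3 was 204, 265 and 233 in Scramble against 118, 131 and 80.8 in shOGT. PYGB, the brain glycogen phosphorylase gene around it, was 31038, 29229.7 and 28405 in Scramble against 14040.1, 14168 and 14296 in shOGT. That ratio changed by -0.05 ± 0.18, and no exon base is shared. AC022509.3 with SSPN, AL354719.2 with EYS and KRTAP5-AS1 with KRTAP5-1 also share none and were all higher, with ratio changes of 0.53 ± 0.35, -0.10 ± 0.36 and 0.41 ± 0.35. KRTAP5-AS1 was 38.1, 30.6 and 30.4 in Scramble against 258, 292 and 184 in shOGT. None of the ratio changes in these 5 pairs was called.

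Among pairs that were lower together, DHRS4-AS1 was 238, 242 and 247 in Scramble against 59.996, 89.97 and 106 in shOGT. It spans DHRS4 and meets the start of DHRS4L2, 2 near-identical dehydrogenase genes whose reads may be shared. DHRS4 was 119, 79.3 and 83.7 in Scramble against 34.7, 22.5 and 22.8 in shOGT. DHRS4L2 was 78.9, 78.4 and 63.5 in Scramble against 34.7, 21.4 and 19.3 in shOGT. The ratio changes were 0.25 ± 0.42 and 0.02 ± 0.44. COLCA1 and COLCA2, head-to-head genes named for colorectal cancer, changed by -1.80 ± 0.21 and -1.88 ± 0.24, and their ratio by 0.08 ± 0.33. SNHG7 with FAM69B gave -0.24 ± 0.22, AL359915.2 with WARS2, the mitochondrial tryptophanyl-tRNA synthetase gene, gave 0.20 ± 0.39, and AC104958.2 with SNTB1 gave -0.04 ± 0.16. None of these 6 was called. SNHG7 shares 1094 exon bases with FAM69B, 25.2% of its own and 40.5% of its partner. AC104958.2 shares 437 with SNTB1, 38.3% of its own. Without the strand setting, reads of such shared bases cannot be told apart.

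In 5 same-direction pairs the ratio change was called, and in 12 of the 44 the ratios did not overlap between groups. AP000866.1 was 7.10, 10.8 and 17.5 in Scramble against 76.8, 86.8 and 75.1 in shOGT. MSANTD2 was 297, 298 and 332 in Scramble against 585, 654 and 658 in shOGT. Both rose, AP000866.1 further, a ratio change of 1.70 ± 0.31. AP000866.1 reached the mean of 20 through its shOGT libraries, so this ratio is given with no test. AC010761.1 lies in RPL23A, a gene of the large ribosomal subunit, and was 53.2, 33.3 and 38.6 in Scramble against 21.1, 9.64 and 13.7 in shOGT. RPL23A was 4553, 4439.8 and 4217 in Scramble against 614, 577 and 568 in shOGT. Both fell, RPL23A further, and the ratio rose by 1.43 ± 0.29. AC010761.1 reached the mean of 20 through its Scramble libraries, so this ratio is given with no test. The pair shares 155 exon bases, 17.2% of AC010761.1. AC121761.1 with GLIPR1 gave 1.17 ± 0.35. RAET1E-AS1 with RAET1E, an NKG2D ligand gene, gave -1.40 ± 0.47, and UCKL1-AS1 with ZNF512B gave -2.75 ± 0.59. RAET1E has close relatives in the genome, between which its reads may be split. The Scramble values of ZNF512B were 0.887, 0 and 0, so that last ratio depends on the pseudocount. The GLIPR1 and RAET1E pairs have adjusted p values of 0.0242 and 0.0409 by limma with Benjamini-Hochberg adjustment. UCKL1-AS1 reached the mean of 20 through its shOGT libraries, so its ratio is given with no test. The GLIPR1 pair was not called without Scramble replicate 1 or 3 or without shOGT replicate 5 or 6 (ratio changes of 1.06 to 1.16), nor the RAET1E pair without the same libraries (-1.40 to -1.17), after rescaling (-1.29) or with a pseudocount of 0.1 (-1.71), and with that pseudocount the ZNF512B pair gave -5.15. These 5 were chosen by their ratio and fall outside the rule for named pairs.

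HOTTIP, the antisense transcript at the tip of the HOXA cluster, was 142, 99.1 and 124 in Scramble against 49.5, 69.6 and 37.6 in shOGT. HOXA13, the homeobox gene it meets head to head, was 600.4, 598 and 567 in Scramble against 177, 198 and 191 in shOGT. Both were lower in every shOGT library, and the ratio changed by 0.40 ± 0.28 (adjusted p = 0.307, limma, Benjamini-Hochberg). After the rescaling HOTTIP was at -0.53, under 2-fold. This pair was chosen after its values were seen, to show the shared coding bases printed above.

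RefSeq promoter windows (GRCh38.p14, 250 bases before to 50 after each start) were matched by symbol for 51 of the 205 antisense transcripts and 45 of the 65 sense genes. Both strands were searched for 5 motifs, none of which contains another, and their matches may overlap in place. A transcript or gene counts once if any of its windows has the motif. The share over all windows counts each window, so the shares are not in the same unit. The E-box CACGTG was in 5 of the 51 antisense transcripts (9.80%) and in 7.26% of all 35116 windows. The CCAAT box (CCAAT) was in 13 (25.5%) against 34.6%. The NRF1 core GCATGC was in 6 (11.8%) against 7.22%, the TATA box TATAAA in 9 (17.6%) against 11.5%, and the ETS core CCGGAA in 6 (11.8%) against 17.2%. In the sense genes the counts of 45 were 7, 24, 4, 5 and 12. HOTTIP and HOXA13 have overlapping windows with 1 CCAAT box in common, shown on the strand of HOTTIP with the match, read in reverse, in capitals. A match is a run of letters and not a shown binding site.
HOTTIP and HOXA13, chr7:27200205-27200229, plus strand: gcggccgcccATTGGcccggccccc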

How the data were processed

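RNA from 3 Scramble and 3 shOGT libraries of HT-29 cells was analysed, with groups and numbers from the sample titles. The authors deposited a single table, whose values are normalized counts of each gene in each library, a signal with no division by length. Every value (100%, tolerance 0.02) is a whole multiple of 1 step per library, so whole reads were recovered. The deposited log2 fold changes and p-values are the authors' own comparison and served only to learn that the table holds genes past a 2-fold change and adjusted p under 0.05. The other deposited columns hold group means and gene annotation. The submitters' processing notes name cutadapt 1.9, HISAT2 2.0.4, UMI-tools, StringTie 1.3.4d, DESeq2, edgeR and the mouse build mm8, whereas the identifiers, positions and exon lengths of all 5681 genes are those of GENCODE 29 on GRCh38. The counting program and its strand setting are not given in the sources used here. Labels describe oligo(dT) capture, dUTP strand marking and unique molecular identifiers, and the methods name an Agilent SureSelect strand-specific kit. Floors cover counting error only.

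limma 3.58.1 (R 4.3.3, trend) was fitted to log2(normalized count + 1) for the 5671 genes that reach 1 in 3 or more libraries, with the group as the only term. Fold changes are on that scale, which understates low genes. The adjusted p-values are Benjamini-Hochberg over all genes tested, or over 411 pairs for ratios. A call needs an absolute log2 change over 1 and an adjusted p under 0.05. The plan allowed for raw counts too, and its branch for normalized values was used. The fits were tested on simulated data first. Alternatives were the median-of-ratios rescaling, a pseudocount of 0.1, no filter, a mean of at least 5, each library left out in turn, edgeR 4.0.16 and DESeq2 1.42.0 on recovered reads, and other limits on members and pairs.

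Members, lists and the rule for named genes were chosen with earlier results of these data known. The rule named the 6 highest means, the 5 largest rises and the 5 deepest falls among transcripts whose groups do not overlap, the antisense RNAs of a list of 59, every opposite pair or the 12 with the largest ratio change, the 12 same-direction pairs with the highest antisense mean, and the 3 transcripts on each side of the threshold. Of these, 1 of the deepest falls and 1 same-direction pair are not reported here and were not replaced. Exon overlap, arrangement and shared bases come from GENCODE 29. Genes that the table leaves out were not analysed here.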

Additional observations from a re-analysis of the deposited data

How the results depend on the processing

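No paired analysis was possible because the Scramble libraries are numbered 1 to 3 and the shOGT libraries 4 to 6, so no number is shared. After rescaling by the median of ratios, 15 antisense transcripts were called lower in place of 49. With a mean of at least 50, 91 were called, 64 higher and 27 lower, and 10 pairs changed in opposite directions and 24 in the same direction. Among pairs with no shared exon base, 4 changed in opposite directions and 12 in the same direction. The last 2 alternatives use fewer transcripts or pairs. The counts of calls and pairs kept within 1.5 times of the reported ones under the other alternatives, with edgeR and DESeq2 among them. Of the named log2 fold changes, those of ZFAS1 (-0.63), AL365181.3 (-0.37) and GABPB1-AS1 (-0.37) were no longer past the threshold after rescaling, and that of AL365181.3 was -0.97 without shOGT replicate 6. The cause was not tested. Leaving out 1 library moved the values of AC006441.1, AL157935.1, RNF157-AS1 and CASC8 with POU5F1B by over 1.5 times, as given beside them. Leaving out 1 library turned the sign of 8 ratio changes that were never called, with these ranges: -0.18 to 0.17 for AL121772.3 with PYGB, -0.32 to 0.49 for DHRS4-AS1 with DHRS4L2, -0.018 to 0.68 for DHRS4-AS1 with DHRS4, -0.18 to 0.64 for AL359915.2 with WARS2, -0.42 to 0.0689 for AL354719.2 with EYS, -0.0454 to 0.35 for ARHGAP5-AS1 with ARHGAP5, -0.12 to 0.10 for AC104958.2 with SNTB1 and -0.16 to 0.33 for COLCA1 with COLCA2. Of the 205 transcripts, 113 have a mean under 50 normalized counts.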

Other observations

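Genes that lie near KCNQ1OT1 on chromosome 11 were looked up after its values were seen. PHLDA2, which like KCNQ1OT1 belongs to the imprinted domain, was 2968, 3290.0 and 3095 in Scramble against 6996, 5503 and 6925 in shOGT, a log2 fold change of 1.05 ± 0.10. OSBPL5 was 654, 565 and 508 in Scramble against 282, 195 and 196 in shOGT, a change of -1.37 ± 0.15, and ASCL2, a transcription factor of intestinal stem cells, was 54.99, 31.5 and 38.6 in Scramble against 14.7, 19.3 and 9.11 in shOGT, a change of -1.50 ± 0.37. TRPM5, a cation channel gene, was 50.6, 9.01 and 34.97 in Scramble against 13.7, 11.8 and 10.2 in shOGT, and its groups overlapped (adjusted p = 0.0617, limma, Benjamini-Hochberg). The antisense transcript AC131971.1, which lies between PHLDA2 and OSBPL5, was higher (log2 fold change 1.65). Neighbours of KCNQ1OT1 were thus found in both directions. Only genes past a 2-fold change could be looked up, so an unchanged neighbour would not appear here.

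In the HOXA cluster, HOXA5 was 251, 238 and 247 in Scramble against 120.0, 102 and 139 in shOGT, a change of -1.03 ± 0.16, in the same direction as HOTTIP and HOXA13. The 233 antisense transcripts under a mean of 20 had a median log2 fold change of 2.22 and 82.8% were higher, but 102 of them had all Scramble libraries at or under 3 reads and 21 had all shOGT libraries there, so these fitted values depend on the pseudocount.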
